A study of Mus musculus with 48 samples.

Results

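The genes followed here are 10 markers of Kupffer cells and macrophages, read across liver and epididymal white adipose tissue: Clec4f, Marco, Vsig4 and Cd5l as liver-resident markers, and Cd68, Csf1r, Cd14, Itgam, Lyz2 and Mpeg1 as general ones. Every probe whose gene symbol is one of these 10 was taken. Probes were found for 7 of the 10 genes, 4 liver-resident and 3 general, among 16593 genes named on the array, and 5 of the 7 were measurable in liver and 4 in fat. In liver, Clec4f was lower in fasted and calorically restricted mice than in ad libitum fed mice, while Marco was higher under restriction. The fasted Clec4f fall only just exceeded 2-fold, and the Marco call was lost when a single ad libitum array was left out. On the log2 values deposited by the authors neither gene changed by 2-fold. No measured marker passed the threshold in FGF21-Tg liver or fat, but the Cd14 difference between FGF21-Tg and wild-type mice ran in opposite directions in liver and fat. Cd68, Csf1r and Mpeg1 were not analysed here, since no probe carries their symbols in the annotation used.

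The arrays are Illumina mouse BeadChips hybridized with RNA of male C57Bl/6J mice aged 3 months. In each tissue 3 arrays were ad libitum fed, 3 fasted for 24 hr, 4 calorically restricted for 2 wks, 3 wild-type littermates and 3 FGF21-Tg, mice that express FGF21, a hormone the liver releases on fasting, from a transgene driven in hepatocytes by the apolipoprotein E promoter. The sample labels give the restriction as 40%, whereas the study's text describes it both by the food given and by the food withheld in ways that do not match, so its degree is uncertain here. An array holds cRNA from 1 to 3 mice, so p-values measure the spread between arrays. Restricted mice were given 1 meal a day and killed before that day's meal, and the effects of less food and of the time since the last meal cannot be told apart.

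Kupffer cells are the resident macrophages of the liver. They line the sinusoids, clear bacteria, complement-coated particles and worn red cells from portal blood, and in mice they carry surface proteins that macrophages of other organs mostly lack. Adipose tissue holds macrophages of its own, which take up lipid and dead adipocytes and whose survival, like that of Kupffer cells, depends on the receptor CSF1R and its ligands. In tissue RNA, fewer cells of a type and less RNA per cell cannot be told apart.

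The labels of chips 2 and 3, counted in sample order, were exchanged position by position. Adipoq (adipocytes), Ckm (muscle) and Apoa1 (hepatocytes) matched the labelled tissue on 32 of 32 arrays of the other chips, but on only 4 of the 16 arrays of chips 2 and 3 as labelled, against 16 of 16 after the exchange. For 4 of the 16, at positions C and D, both labels name fat, and the tissue markers cannot test the exchange there. Over the genes tested in fat, the position C and D arrays then given to restriction correlated at 0.981 to 0.985 with the other restricted fat arrays and at 0.928 to 0.949 with fat arrays of chip 3. Those other restricted arrays also lie on chip 2, so this contrast cannot tell restriction from chip. Within chip 3 the position C and D arrays correlated at 0.9896 and 0.9902 with the ad libitum array at position E, and at 0.9271 to 0.9635 with the fasted arrays. After the exchange all ad libitum and fasted fat arrays lie on chip 3 and all restricted fat arrays on chip 2, so in fat restriction and chip cannot be told apart. Restricted liver replicates 3 and 4 lie on chip 3 and all other liver arrays on chips that needed no exchange. Results are given with the exchange and without chips 2 and 3, which removes restricted liver replicates 3 and 4 and every fasted, restricted and ad libitum fat array. The median intensity was 182 to 265 over the 48 arrays, with 42.0 to 56.3% of probes detected at a p-value under 0.05. Fgf21 itself was 15.85 to 15.97 log2 units in the 3 FGF21-Tg livers and 7.70 to 9.13 in the 3 wild-type livers, so its level matched the transgene labels. It was also high in the 3 FGF21-Tg fat arrays, at 13.18 to 14.34, where it was not detected in wild-type fat (5.63 to 5.90).

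Promoters are shown for Clec4f, Marco and Lyz2, the markers that passed the threshold in a comparison. They run from 250 bases before to 50 bases after each gene's start and were taken from RefSeq on build GRCm38.p6, which held a promoter for 8 of the 10 genes. Capitals mark AGGAAGT, the core that the myeloid factor PU.1 binds, searched on both strands.
Clec4f, chr6:83656067-83656366, minus strand: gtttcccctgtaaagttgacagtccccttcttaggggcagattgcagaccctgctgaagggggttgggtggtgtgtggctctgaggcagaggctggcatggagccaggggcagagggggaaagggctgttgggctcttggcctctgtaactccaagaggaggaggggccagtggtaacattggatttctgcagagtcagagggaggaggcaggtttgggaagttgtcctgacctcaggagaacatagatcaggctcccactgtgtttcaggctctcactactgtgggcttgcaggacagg
Marco, chr1:120504975-120505274, minus strand: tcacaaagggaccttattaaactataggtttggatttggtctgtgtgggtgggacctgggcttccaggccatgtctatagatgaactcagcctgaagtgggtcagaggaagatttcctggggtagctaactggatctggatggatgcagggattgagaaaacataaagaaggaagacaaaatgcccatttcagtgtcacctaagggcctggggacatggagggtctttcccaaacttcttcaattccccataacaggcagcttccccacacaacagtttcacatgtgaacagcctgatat
Lyz2, chr10:117282223-117282522, minus strand: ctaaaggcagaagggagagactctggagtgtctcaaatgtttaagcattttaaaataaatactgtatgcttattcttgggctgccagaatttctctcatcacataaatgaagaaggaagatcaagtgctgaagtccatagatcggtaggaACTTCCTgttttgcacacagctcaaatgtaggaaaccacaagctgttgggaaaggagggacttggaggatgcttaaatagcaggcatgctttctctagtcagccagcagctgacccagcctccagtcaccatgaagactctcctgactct
The Lyz2 promoter held the motif once, on the opposite strand and beginning at base -100 from the start. Neither the Clec4f nor the Marco window held it, and 1 of the 8 promoters did, beside 9.35% of 32851 promoters of the same length. A match describes the letters only.

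Which markers gave a signal differed between the tissues. Clec4f, a C-type lectin that mouse Kupffer cells carry, was detected on 16 of 16 liver arrays by its brighter probe and on 13 by the dimmer one, and on 0 of 16 fat arrays by either. Vsig4, a receptor that binds complement fragment C3b, and the general markers Cd14, the co-receptor for bacterial lipopolysaccharide, and Lyz2, lysozyme of myeloid cells, were detected on all 16 arrays of each tissue. Marco, a scavenger receptor that binds bacteria, was detected on 12 liver and 4 fat arrays. Cd5l, a secreted protein of tissue macrophages, and Itgam, the CD11b chain of the integrin that binds complement on myeloid cells, were detected on 0 arrays of either tissue, and their probes say nothing of a change. Of 3 Lyz2 probes, 1 was detected on 0 liver and 2 fat arrays and the other 2 on every array. The brightest detected probe stands for a gene in each tissue.

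The study set FGF21-Tg mice beside mice deprived of food, and of these states the 24 hr fast is taken first. A gene passed the threshold with an adjusted p under 0.10 in the limma fit over all genes of the tissue and a change of more than 2-fold, which are the study's criteria. Of the 5 markers tested in fasted liver, 1 fell and 0 rose, where 5.53% of all 9019 genes passed in either direction. Clec4f was 10.61, 10.15 and 10.42 log2 units in the ad libitum livers and 9.82, 9.14 and 9.20 in the fasted livers. All 3 fasted livers lay below all 3 ad libitum livers, and the mean fell by 1.01 ± 0.22 log2 units (SE, n = 3 and 3, limma adjusted p = 0.0057), a change of 2.01-fold that only just exceeds the limit. Leaving out fasted replicate 2 or 3 or ad libitum replicate 1 or 3 took it under 2-fold, to between -0.88 and -0.996, with an adjusted p of 0.034 or lower each time. On the deposited log2 values it was -0.54 (adjusted p = 0.027).

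Vsig4 and Marco, the other liver-resident markers measured, did not pass in fasted liver. Vsig4 was 11.75, 10.93 and 11.64 in ad libitum livers and 11.07, 10.19 and 10.49 in fasted livers, a difference of -0.86 ± 0.31 (adjusted p = 0.087, under 2-fold). The groups overlapped, since ad libitum replicate 2 lay below fasted replicate 1. Marco was 6.77, 5.22 and 6.34 against 6.59, 5.40 and 6.18, with a difference of -0.05 ± 0.57, and replicate 2 of each group was not detected. Of the general markers, Lyz2 was 10.38, 9.60 and 10.35 in ad libitum livers and 9.71, 8.89 and 9.18 in fasted livers, a difference of -0.85 ± 0.28 (adjusted p = 0.057) that was also under 2-fold, with overlapping groups. Ad libitum replicate 2 was the lowest of its group for Clec4f, Vsig4, Marco and Lyz2, and without it all 3 of Clec4f, Vsig4 and Lyz2 passed. Cd14 was 7.04, 7.17 and 7.30 against 7.50, 7.37 and 7.69, higher in every fasted liver by 0.35 ± 0.33 on average, and did not pass. Groups did not overlap for 2 of the 5 markers, Clec4f and Cd14, beside 34% of all genes. The second Clec4f probe did not pass, at -0.62 ± 0.35 (adjusted p = 0.28 over all probes). Without chips 2 and 3 the same gene, Clec4f, was called, at -1.01 ± 0.21, beside 5.48% of 8902 genes.

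**Figure D1:**
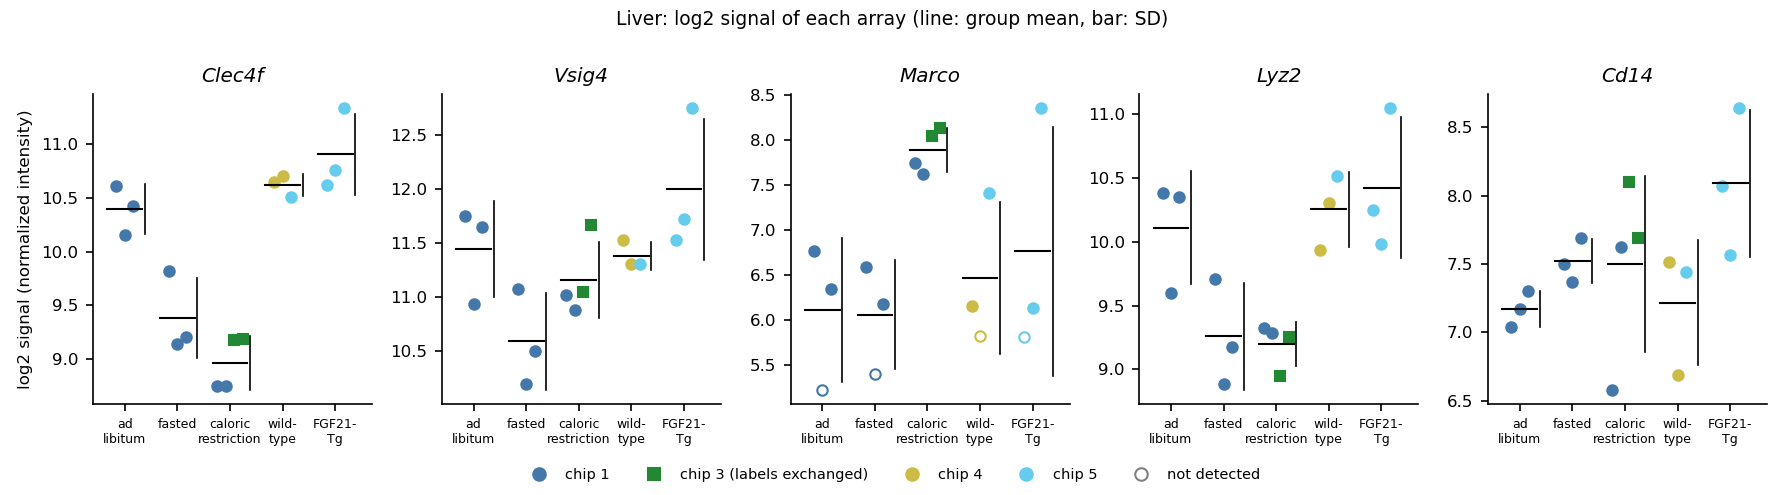
Normalized log2 signal (vertical axis) of the 5 measured markers in each liver array, by group, with colours for chips, squares for arrays whose labels were exchanged, open circles for arrays on which the probe was not detected, a line at the group mean and a bar of 1 SD. Clec4f is below the ad libitum range in all 3 fasted and all 4 restricted livers, Marco is above it in all 4 restricted livers, and FGF21-Tg replicate 3 is the highest of the 16 livers for each marker.

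Caloric restriction was compared with the same ad libitum livers, so its values stand beside those of fasting without a count of what they share. Of 5 markers, 1 rose and 1 fell, against 8.84% of all genes called. Clec4f was 8.75, 8.75, 9.18 and 9.19 in the 4 restricted livers, below every ad libitum liver, and the mean fell by 1.43 ± 0.21 (adjusted p = 9.3e-05), to 0.372 of the ad libitum level. Its second probe, not detected in replicates 3 and 4, fell by 1.10 ± 0.32 (adjusted p = 0.019 over all probes), and without chips 2 and 3 it did not pass, at -0.76 (adjusted p = 0.19). Against the ad libitum mean the Clec4f difference was -1.64 for the restricted livers on chip 1 and -1.21 for those on chip 3, and it was the marker still called without chips 2 and 3, at -1.64 ± 0.24 (adjusted p = 4.5e-04), beside 8.59% of genes. On the deposited log2 values the difference was -0.68 (adjusted p = 0.0024), under 2-fold.

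Marco moved the other way. It was 7.74, 7.62, 8.04 and 8.13 in the restricted livers, all detected, above the 3 ad libitum livers, of which 2 were detected. The mean was higher by 1.77 ± 0.53 (3.42-fold, adjusted p = 0.020). The call rests in part on ad libitum replicate 2, at 5.22 and not detected: without that array the difference was 1.33 and the adjusted p 0.11. Without chips 2 and 3 it was 1.56 ± 0.68 (adjusted p = 0.13, not called), again with every restricted liver above every ad libitum liver. Its size moved with the processing: it was 0.76 with no background correction, under 2-fold at an adjusted p of 0.012, and 0.14 on the deposited log2 values (adjusted p = 0.049).

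The other 3 markers did not pass under restriction. Vsig4 was 11.02, 10.88, 11.05 and 11.67, a difference of -0.29 ± 0.29 with overlapping groups. Lyz2 was 9.32, 9.29, 8.94 and 9.25, lower in each restricted liver than in any ad libitum liver by 0.91 ± 0.26 on average (adjusted p = 0.017, under 2-fold); without chips 2 and 3 the adjusted p was 0.11. Cd14 ranged widely, at 6.58, 7.63, 8.10 and 7.69, with a difference of 0.33 ± 0.31. Replicate 1, on chip 1, was the lowest and replicate 3, on chip 3, the highest of these. Groups did not overlap for 3 of the 5 markers (Clec4f, Marco and Lyz2), beside 38.8% of all genes.

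Between fasted and restricted livers, which share no arrays, 1 of 5 markers passed against 4.68% of all genes. Marco was lower in fasted livers by 1.83 ± 0.53 (adjusted p = 0.025), the 1 marker whose groups did not overlap, beside 30.2% of all genes. It was not called without chips 2 and 3, at -1.62 ± 0.68 (adjusted p = 0.15), where 4.68% of genes were called. Clec4f differed by 0.42 ± 0.21 (adjusted p = 0.18), higher in fasted livers, with overlapping groups.

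**Figure D2:**
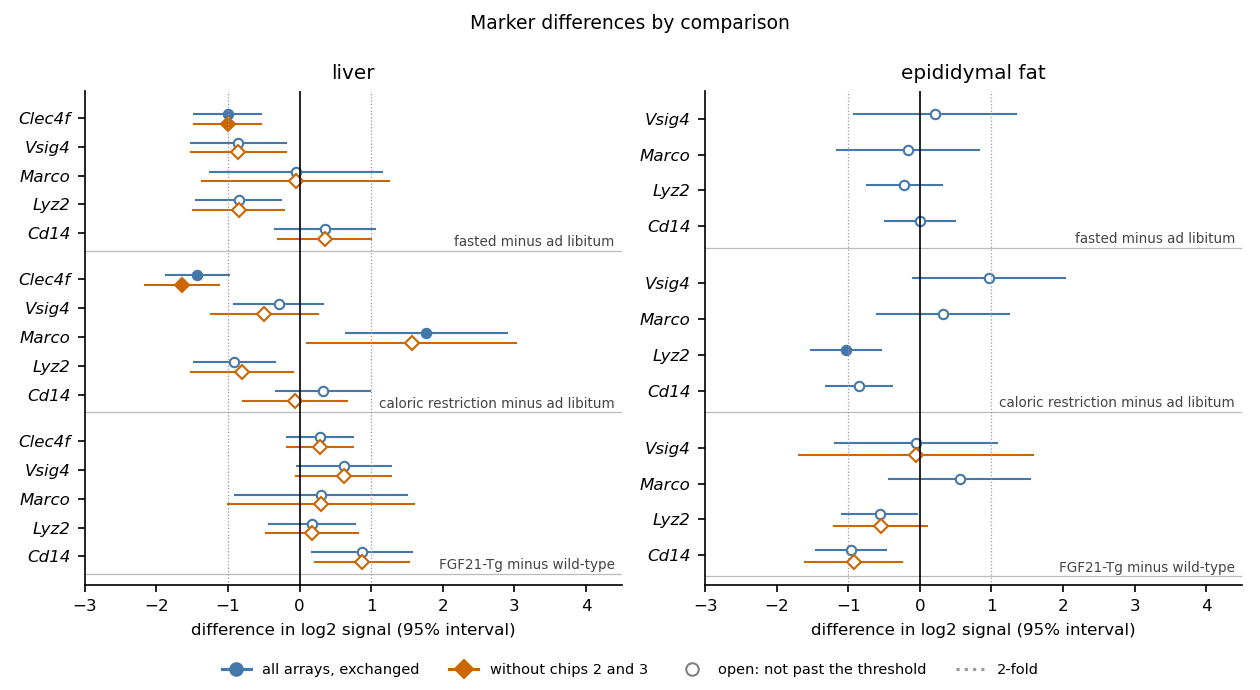
Difference in log2 signal (horizontal axis, point, with its 95% interval) for each measured marker in the 3 main comparisons, liver on the left and fat on the right, with circles for all arrays after the exchange and diamonds without chips 2 and 3. Filled points passed the threshold. The filled circles are Clec4f at -1.01 and -1.43 in fasted and restricted liver, Marco at 1.77 in restricted liver and Lyz2 at -1.03 in restricted fat. The filled diamonds are Clec4f at -1.01 in fasted and -1.64 in restricted liver.

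The transgenic mice had higher marker means in liver, but 0 of 5 markers passed, beside 1.81% of genes with all arrays and 1.7% without chips 2 and 3. At an unadjusted p under 0.05 there was 1, Cd14. It was 7.51, 6.69 and 7.44 in wild-type livers and 8.07, 7.56 and 8.64 in FGF21-Tg livers, higher in all 3 by 0.87 ± 0.33 on average (adjusted p = 0.18). Vsig4 was 11.53, 11.30 and 11.31 against 11.53, 11.72 and 12.75, a difference of 0.62 ± 0.31 (adjusted p = 0.32) with replicate 1 of each group almost level. Groups did not overlap for these 2 of 5, beside 18.9% of all genes. For the remaining 3, the differences were 0.28 ± 0.22 (Clec4f), 0.30 ± 0.57 (Marco) and 0.17 ± 0.28 (Lyz2), with overlapping groups. FGF21-Tg replicate 3 held the highest signal of all 16 livers for each of the 5 markers, for instance 11.33 for Clec4f and 8.35 for Marco. Its summed signal was also the highest of its group for other macrophage genes (24662 against 16149 and 16450) and for endothelial genes (22425 against 16145 and 15366). Other sums also differed between the transgenic and wild-type livers. Genes of stellate cells and fibroblasts summed to 17029 to 21731 against 11658 to 12934, with 6 of 6 tested genes above 0 and 0 called (2 at an unadjusted p under 0.05), and neutrophil genes to 493 to 899 against 414 to 456, neither overlapping. Of 2 erythroid genes 1 fell, with a median of -1.41. The part of these cells in the marker values was not tested. With FGF21-Tg replicate 3 left out, Cd14 differed by 0.60, Vsig4 by 0.24 and Clec4f by 0.07. Marco and Lyz2 were then lower in FGF21-Tg livers, at -0.49 and -0.14. Wild-type replicates 1 and 2 lie on chip 4 and the other 4 arrays on chip 5. With the chip as a block the wild-type arm is replicate 3 alone, and its spread is taken from the other groups; against that array the differences were 0.65 for Cd14, 0.69 for Vsig4, 0.40 for Clec4f, -0.65 for Marco and -0.09 for Lyz2, and 0 passed.

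Other genes of these cells were read from 2 lists, 10 further genes of Kupffer cells and 24 of macrophages at large. In fasted liver, where 5.53% of all genes passed, 0 of the 10 Kupffer cell genes tested rose and 1 fell. It was Folr2, a folate receptor of tissue macrophages, at -1.73 ± 0.27. Over the 10 the median was -0.33, with 3 of 10 above 0. Of 20 macrophage genes tested 0 rose and 4 fell: Aif1, a macrophage calcium-binding protein (-1.30 ± 0.21), Tyrobp, an adaptor of activating receptors (-1.16 ± 0.38), C1qa, a chain of complement C1q (-1.07 ± 0.28), and Adgre1, a surface receptor of mature mouse macrophages (-1.03 ± 0.33). The median over the 20 was -0.58, with 0 of 20 above 0, beside a median of 3e-04 over all genes, and 12 had an unadjusted p under 0.05. The number past the threshold ranged from 1 to 7 as single arrays were left out, being 7 without ad libitum replicate 2, 1 without ad libitum replicate 3 or fasted replicate 2 or 3, and 2 without ad libitum replicate 1.

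Under restriction 0 of 10 Kupffer cell genes rose and 4 fell in liver, where 8.84% of all genes passed. Over the 10 the median was -0.42, with 4 of 10 above 0. The 4 that fell were C6, a complement component (-2.05 ± 0.24), Folr2 (-1.47 ± 0.26), Id3, an inhibitor of transcription factors that Kupffer cell identity needs in mice (-1.19 ± 0.33), and Timd4, a receptor for dying cells (-1.16 ± 0.27). The same 4 were called without chips 2 and 3, all lower. Of 20 macrophage genes 0 rose and 2 fell, Aif1 (-1.69 ± 0.20) and Adgre1 (-1.50 ± 0.31), close to the 8.84% of all genes. Their median was -0.54 beside 0.01 over all genes, with 1 of 20 above 0. The count past the threshold was 6 without chips 2 and 3, beside 8.59% of genes, and also 6 without ad libitum replicate 2. In FGF21-Tg liver, where 1.81% of all genes passed, 1 gene of the Kupffer cell list fell, C6 (-3.35 ± 0.26), and 0 rose. Which liver cells carry the C6 RNA was not measured, here or under restriction. The median of that list was 0.17, with 7 of 10 above 0. For the macrophage list 0 of 20 genes passed in the limma fit (5 at an unadjusted p under 0.05) and the median was 0.37.

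Markers of other cells moved in the same livers. Summed erythroid signal (Alas2 and Hba-a1, both detected) was 33740 to 40819 in ad libitum, 21738 to 27752 in fasted and 10985 to 27397 in restricted livers. Endothelial signal over 11 genes was 9048 to 14329 in ad libitum, 8663 to 11293 in fasted and 7650 to 8734 in restricted livers. Neutrophil genes, 8 with a probe and 1 to 3 detected in these livers, summed to 455 to 548, 351 to 446 and 371 to 399 in the same order. All 3 sums were lower in restricted than in ad libitum livers without overlap, and their part in the marker results was not tested. Of 10 endothelial genes tested under restriction 0 rose and 0 fell, beside 8.84% of all genes called. Their median was -0.15, with 4 of 10 above 0. The sum of genes of stellate cells and fibroblasts overlapped, at 12720 to 16743 in restricted and 12065 to 13221 in ad libitum livers. Adipocyte genes summed to 232 to 322 over the liver arrays of these 3 groups, beside 63224 or more in fat.

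The pathway that Cd14 serves was represented by 6 genes, of which 5 were measurable in liver. Lbp, the plasma protein that hands lipopolysaccharide to CD14 and is made by hepatocytes, rose in each liver comparison, by 1.60 ± 0.16 in fasting, 1.51 ± 0.15 in restriction and 1.26 ± 0.16 in FGF21-Tg mice (adjusted p = 6.0e-06, 2.3e-06 and 1.7e-04). Tlr2, a receptor for bacterial lipoproteins, fell under restriction (-1.27 ± 0.22), and no other gene of the list passed in liver. Cd9, a tetraspanin of lipid-laden macrophages and of other cells, rose under restriction by 1.89 ± 0.21, the single change among 4 lipid-associated macrophage genes tested there. In fat, Lbp fell by 1.99 ± 0.23 in fasting and by 1.51 ± 0.22 in restriction. Both values rest on the label exchange, and restricted and ad libitum fat lie on different chips. Hepatocyte genes summed to 3174 to 20903 in ad libitum, 1418 to 5440 in fasted and 1171 to 18240 in restricted fat. The part of that signal in the Lbp values was not tested.

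**Figure D3:**
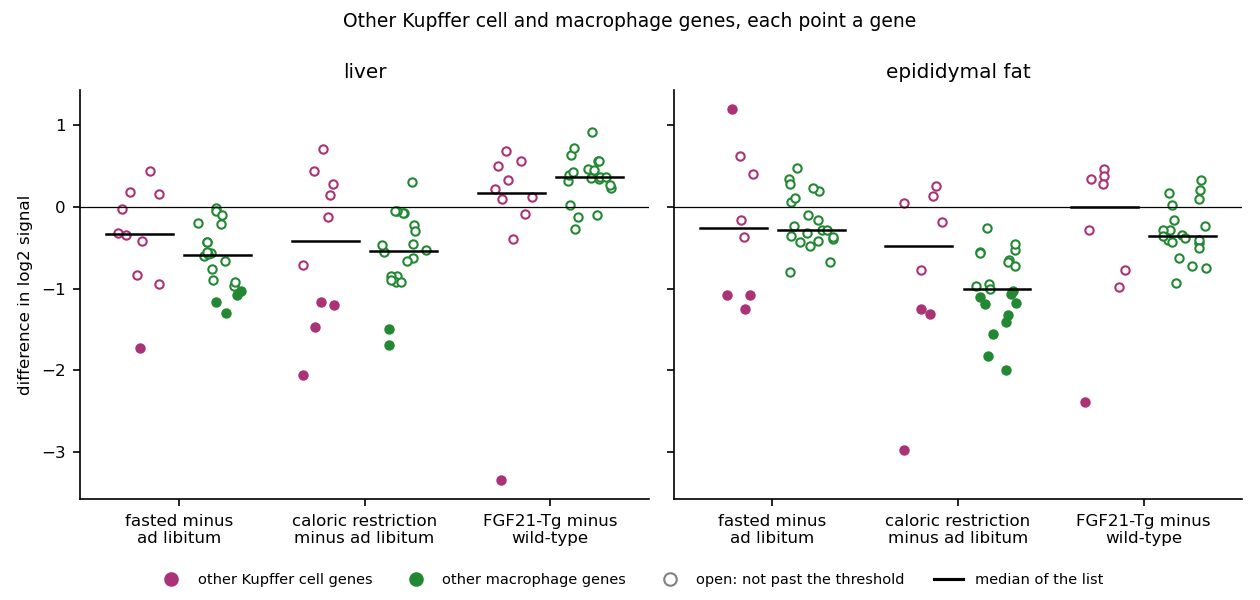
Difference in log2 signal (vertical axis) of each further Kupffer cell gene (purple) and macrophage gene (green) in the 3 main comparisons, liver on the left and fat on the right, filled where the gene passed the threshold, with a line at each list's median. Of the 20 macrophage genes, 0 lie above 0 in fasted liver and 1 in restricted liver, with medians of -0.58 and -0.54. The median of the macrophage list is lowest in restricted fat, at -0.999.

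In fat 4 of the 10 markers were measurable, Vsig4, Marco, Lyz2 and Cd14, and fasting changed 0 of them, beside 8.29% of 10506 genes; 0 had an unadjusted p under 0.05. The differences were -0.0021 ± 0.23 for Cd14, -0.22 ± 0.24 for Lyz2, 0.21 ± 0.53 for Vsig4 and -0.17 ± 0.46 for Marco, and the groups overlapped for each, while they did not for 44% of all genes. Their 95% intervals reached -0.49 and 0.49 for Cd14 and -0.92 and 1.35 for Vsig4, so a change of Vsig4 by 2-fold was within its error.

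Under restriction 1 of the 4 passed in fat, a fall, where 15.9% of genes were called. Lyz2 was 12.86, 12.33 and 13.16 in ad libitum fat and 11.61, 11.95, 11.74 and 11.71 in restricted fat. No restricted array reached the lowest ad libitum array, and the mean fell by 1.03 ± 0.23 (2.04-fold, adjusted p = 0.0025), while the other detected probe fell by 0.81 ± 0.20 (under 2-fold). Leaving out restricted replicate 1 or ad libitum replicate 1 or 3 took Lyz2 under 2-fold, to -0.978, -0.988 and -0.842. Cd14 was 10.44, 9.90 and 10.33 in ad libitum fat and 9.45, 9.17, 9.46 and 9.41 in restricted fat, without overlap and 0.85 ± 0.21 lower (adjusted p = 0.0056, under 2-fold). Vsig4 was higher in each restricted array, at 8.45, 8.69, 8.45 and 8.45 against 7.999, 6.86 and 7.79, by 0.96 ± 0.49 on average (adjusted p = 0.14). Groups did not overlap for 3 of the 4 markers, beside 52.5% of all genes, the general Lyz2 and Cd14 lower and the liver-resident Vsig4 higher, and Marco, detected on 2 of 4 restricted arrays, differed by 0.32 ± 0.43. These values rest wholly on the exchange at positions C and D: with only the positions of different tissues exchanged, Lyz2 differed by -0.015, Cd14 by 0.0083 and Vsig4 by -0.23, and 0 markers were called.

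**Figure D4:**
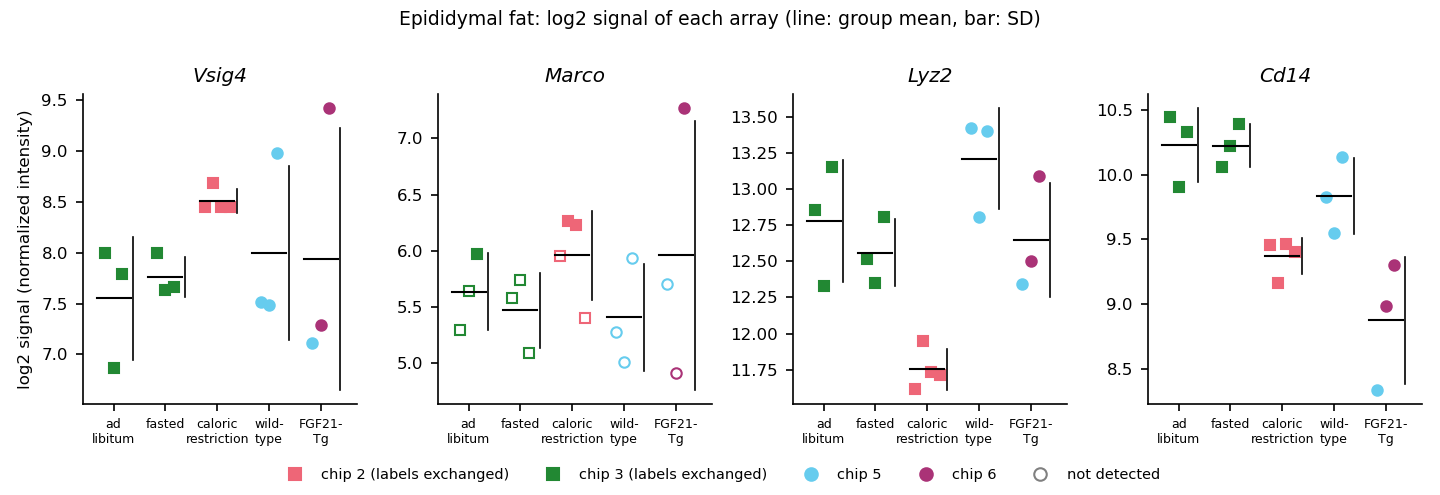
Normalized log2 signal (vertical axis) of the 4 markers measured in epididymal fat, by group, with colours for chips, squares for arrays whose labels were exchanged, open symbols where the probe was not detected, a line at the group mean and a bar of 1 SD. Lyz2 and Cd14 are lowest among the diet groups in the 4 restricted arrays, all on chip 2, and Cd14 is below the wild-type range in all 3 FGF21-Tg arrays.

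Fasted and restricted fat arrays also lie on different chips. Of 4 markers 0 passed, where 11.5% of genes did, and 2 had an adjusted p under 0.10 with a change under 2-fold: Cd14 was higher in fasted fat by 0.85 ± 0.21 (adjusted p = 0.0072) and Lyz2 by 0.81 ± 0.23 (adjusted p = 0.014). Groups did not overlap for these and Vsig4, 3 of 4, beside 43.7% of all genes.

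Of 21 genes of the wider macrophage list tested in restricted fat 10 fell and 0 rose, where 15.9% of all genes passed. The median was -0.999 beside -0.0083 over all genes. Among those called were Aif1 (-1.997 ± 0.51), Ly86, a partner of a Toll-like receptor relative (-1.82 ± 0.16), Mrc1, the mannose receptor (-1.55 ± 0.21), and Fcer1g, the common Fc receptor chain (-1.40 ± 0.18). The count was 8 to 11 as single arrays were left out and 0 with only the positions of different tissues exchanged. Both CSF1R ligands fell, Csf1 (-2.29 ± 0.17) and Il34 (-2.08 ± 0.27), and both also fell in fasted fat (-1.10 ± 0.18 and -1.56 ± 0.28). The count of ligands that passed in fasted fat was 1 of 2 without ad libitum replicate 1, and 0 of 2 in either comparison with only the positions of different tissues exchanged. Of the Kupffer cell list Folr2 (-2.98 ± 0.17), Id3 (-1.31 ± 0.27) and Timd4 (-1.25 ± 0.36) fell in restricted fat, 3 of 8 tested, while 3 of 8 were above 0. Retnla, a secreted protein of alternatively activated macrophages, fell by 4.15 ± 0.29. Against these, Chil3, a chitinase-like protein of myeloid cells, rose by 5.05 ± 0.31, and Gpnmb and Trem2, both of lipid-laden macrophages, by 2.18 ± 0.34 and 1.19 ± 0.34. In fasted fat, where 8.29% of all genes passed, 0 of 21 macrophage genes passed in the limma fit (3 at an unadjusted p under 0.05). Of the Kupffer cell list Cd163, the haemoglobin scavenger receptor, rose from a mean of 10.99 to 12.19. Folr2 (-1.08 ± 0.19), Id3 (-1.24 ± 0.29) and Timd4 (-1.07 ± 0.38) fell, and 3 of the 8 genes tested were above 0. These 4 calls of 8 were 2 without ad libitum replicate 1 and 1 with only the positions of different tissues exchanged.

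Genes of other cells differed in the same fat arrays. Adipocyte genes, 6 with a probe, summed to 63224 to 65114 in restricted and 113082 to 122773 in ad libitum fat, with 1 of 6 up and 1 down. Endothelial genes summed to 5417 to 6469 against 7847 to 10215, with 1 of 8 tested down and 0 up, and neutrophil genes to 636 to 736 against 753 to 900. These 3 sums were lower in restricted fat without overlap. Of 5 neutrophil genes tested, however, 0 rose, 1 fell and 3 lay above 0, with a median of 0.099. The sum of genes of stellate cells and fibroblasts was higher, at 49950 to 59372 against 44909 to 49164, while of its 6 tested genes Reln rose (2.36 ± 0.52) and Col1a1 (-3.86 ± 0.38), Col3a1 (-4.004 ± 0.32) and Pdgfrb (-1.10 ± 0.14) fell. In fasted fat the adipocyte sum was 73786 to 75278 and the endothelial sum 13577 to 16559, the first below and the second above the ad libitum arrays. The part of these cells in the marker values was not tested.

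In FGF21-Tg fat 0 of 4 markers passed, beside 2.59% of genes, and 0 of 3 without chips 2 and 3, beside 0.104%. At an unadjusted p under 0.05 there were 2 with all arrays, Cd14 and Lyz2. Cd14 was 9.83, 9.55 and 10.13 in wild-type fat and 8.34, 8.99 and 9.30 in FGF21-Tg fat. The 3 transgenic arrays were the lower ones (1 of 4 markers without overlap, beside 16.5% of all genes), by 0.96 ± 0.23 on average (adjusted p = 0.036, under 2-fold), or 0.92 ± 0.28 without chips 2 and 3 (adjusted p = 0.37). Lyz2 was 13.42, 12.81 and 13.40 against 12.35, 12.50 and 13.09, a difference of -0.56 ± 0.24 (adjusted p = 0.22). Vsig4 spread most, at 7.52, 7.49 and 8.98 in wild-type and 7.11, 7.29 and 9.42 in FGF21-Tg fat, and its mean differed by -0.06 ± 0.53. FGF21-Tg replicate 3 was also the one transgenic array in which Marco (7.27) and the muscle gene Ckm (7.97) were detected, and replicate 1 held epididymis genes at a summed signal of 17845, beside 120 to 530 in the other 5 arrays of both groups. Without replicate 1 the Cd14 difference was -0.69 (adjusted p = 0.079), and without replicate 3 it was -1.17 (adjusted p = 0.033). Wild-type fat and FGF21-Tg replicate 1 lie on chip 5 and the other 2 transgenic arrays on chip 6. With the chip as a block the transgenic arm is replicate 1 alone, the array with the epididymis signal; Cd14 then differed by -1.49 (adjusted p = 0.0056), which passes both limits but rests on that 1 array. Adipocyte genes summed to 86758 to 103836 in FGF21-Tg against 105099 to 113272 in wild-type fat and endothelial genes to 5626 to 8131 against 8647 to 10752, both lower without overlap, and their part was not tested. Of 21 macrophage genes 0 passed in the limma fit (5 at an unadjusted p under 0.05), with a median of -0.36. Of 5 lipid-associated macrophage genes tested 0 passed in that fit (4 at an unadjusted p under 0.05). Their median was -0.12, with 2 of 5 above 0. The summed signal of that list was higher without overlap, at 23668 to 24833 in FGF21-Tg against 18430.5 to 18918 in wild-type fat. Chil3 rose by 2.99 ± 0.33, also without chips 2 and 3 (3.01 ± 0.29), while Retnla (-1.46 ± 0.32) and C6 (-2.39 ± 0.45) fell, neither of which was called without them.

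The effects in liver and fat were compared within 1 fit of 8613 genes measured in both tissues, which treats the arrays of the tissues as independent. In the transgenic mice the difference itself passed an adjusted p under 0.10 for 1 of 4 markers, where 10.9% of genes passed. For Cd14 the liver effect of 0.87 exceeded the fat effect of -0.96 by 1.83 ± 0.42 log2 units (95% interval 0.97 to 2.70, adjusted p = 0.011). Every FGF21-Tg liver lay above every wild-type liver, and every FGF21-Tg fat array below every wild-type one. Without chips 2 and 3 the difference was 1.80 (adjusted p = 0.044), and as each of the 12 arrays was left out in turn it ran from 1.56 to 2.10, with an adjusted p of 0.043 or lower. Under restriction Cd14 again passed, as 1 of 4 markers against 31.4% of genes, with 0.33 in liver and -0.85 in fat (difference 1.18 ± 0.39, adjusted p = 0.028). That difference was 0.32 (adjusted p = 0.71) with only the positions of different tissues exchanged. In fasting 0 of 4 markers passed, where 17.8% of genes did, the lowest adjusted p being 0.30 for Vsig4 (-0.86 in liver, 0.21 in fat).

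The liver markers did not vary as a block over the 16 livers, a description of arrays that share groups and chips. Clec4f correlated at 0.90 with Lyz2 and 0.73 with Vsig4, but at -0.23 with Marco and 0.19 with Cd14. Outside the markers, the genes most like Clec4f over these livers were Cd52, a surface glycoprotein of leukocytes (Pearson's r = 0.97), Ckb, a creatine kinase (0.97), Gbp2, an interferon-induced guanylate-binding protein (0.97), Serpina10, a plasma protease inhibitor (0.96), and Rgl1 (0.96). Each stayed at 0.95 or above without chips 2 and 3, a setting that keeps most of the arrays on which these genes were picked.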

How the data were processed

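RNA of liver, epididymal fat and gastrocnemius muscle was measured on 48 arrays on 6 chips. The authors deposited unnormalized intensity values, a mean over the beads of a probe, exported from BeadStudio (version not given in the sources used here). Beside each intensity they deposited a detection p-value. A second deposited table holds log2 values that went through a model-based background correction and quantile normalization, and each array's intensities ranked most like its own column of that table on 48 of 48 arrays (rank correlation 0.996 or higher).

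From the intensities the background was corrected with limma's nec function (offset 16), the arrays of a tissue were quantile normalized and log2 was taken, in R 4.3.3 with limma 3.58.1. A probe entered the test with a detection p below 0.05 on 3 or more arrays of its tissue, and the brightest tested probe stands for a gene. Of 25697 probes, 23978 carry 1 symbol. Each tissue's 16 arrays went into a single limma model with a mean for each group, group differences were tested with eBayes, and p-values were adjusted by Benjamini-Hochberg over all genes tested. The number of arrays, 2 to 4 per group, limits the precision. Significance Analysis of Microarrays, which the study's methods name, was not run here. The limma fit was tested on simulated data. The number of per-sample columns left unused was 0.

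The members and lists were chosen with earlier results of these data known. Named were all members with a probe, at most 4 genes of each other list past the threshold in a comparison, the array check genes and the 5 genes most like Clec4f; where more genes are named, or a list's gene beyond the largest 4, they were chosen after their values were seen. Alternatives were other label exchanges, leaving out chips 2 and 3, other background corrections, normalizations, filters and thresholds, the deposited log2 values, the chip or replicate number as a block, fits of 2 groups and leaving out each array.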

Additional observations from a re-analysis of the deposited data

Results flagged for a closer look

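Over 12 sets of 4 arrays, 2 held an array with a gap that set it apart by Dixon's test, which by chance marks about 1 set in 20. In restricted fat Vsig4 was 8.69 in replicate 2 and 8.45 in each of the other 3 arrays, which lie close together. In restricted liver the Lyz2 probe that does not stand for the gene was 9.63 in replicate 4 and 9.03 to 9.10 in the others. Cd14 differed between liver and fat in its response, by 1.83 log2 units in FGF21-Tg mice and by 1.18 under restriction. Which cells carry the Cd14 RNA was not measured.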

How the results depend on the processing

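With all arrays as labelled, the number of markers past the threshold was 0 in fasted liver, 0 in restricted fat and 3 between fasted and restricted fat, and these differences changed sign: Lyz2 in restricted liver (0.37), Vsig4 (1.22), Cd14 (-0.30) and Lyz2 (-1.21) between fasted and restricted liver, Vsig4 in fasted fat (-1.45), Cd14 in restricted fat (0.59), and Cd14 (-1.50, adjusted p = 0.036) and Lyz2 (-0.86) between fasted and restricted fat. With only the positions of different tissues exchanged, a setting chosen after seeing the data, the count in restricted fat was 0, the Cd14 difference between tissues under restriction was 0.32 and not called, and the signs turned for Vsig4 (-0.47), Cd14 (0.49) and Lyz2 (0.36) in fasted fat and for Marco (-0.080), Vsig4 (-0.23) and Cd14 (0.0083) in restricted fat.

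Without chips 2 and 3 the count was 1 in restricted liver and 0 between fasted and restricted liver, where Lyz2 was -0.045, and Cd14 in restricted liver was -0.067; fasting and restriction in fat could not be fitted. With the chip as a fixed block Cd14 in restricted liver was -0.066, Lyz2 between fasted and restricted liver -0.046, with a count of 0 there, Marco and Lyz2 in FGF21-Tg liver -0.65 and -0.094, and the count in FGF21-Tg fat 1; these FGF21-Tg values rest on 1 wild-type liver and 1 FGF21-Tg fat array.

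With no background correction the counts were 0 in fasted liver, 1 in restricted liver, 0 between fasted and restricted liver and 0 in restricted fat, and Cd14 between fasted and restricted liver (-0.015) and Vsig4 in FGF21-Tg fat (0.013) changed sign. The deposited log2 values gave 0 in fasted liver, 0 in restricted liver and 0 between these, with Cd14 at -0.0067 there and Vsig4 at 0.023 in FGF21-Tg fat. Quantile normalization over all arrays gave 0 in fasted liver and 1 in FGF21-Tg fat. Median scaling gave 2 in restricted fat, and Cd14 and Lyz2 between fasted and restricted liver were -0.17 and -0.14. With no fold minimum the counts were 3 in fasted liver, 2 in restricted fat, 1 in FGF21-Tg fat and 2 between fasted and restricted fat.

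Leaving out each array in turn, the counts ran from 0 to 3 in fasted liver, 0 to 1 between fasted and restricted liver, 0 to 2 in restricted fat and 0 to 1 in FGF21-Tg fat. Differences that changed sign ran from -0.50 to 0.28 for Marco in fasted liver, from -0.49 to 0.78 for Marco and -0.14 to 0.39 for Lyz2 in FGF21-Tg liver, from -0.28 to 0.22 for Cd14 and -0.17 to 0.24 for Lyz2 between fasted and restricted liver, from -0.16 to 0.11 for Cd14, -0.34 to 0.022 for Marco and -0.13 to 0.43 for Vsig4 in fasted fat, and from -0.80 to 0.44 for Vsig4 and -0.10 to 1.07 for Marco in FGF21-Tg fat. None of the differences that changed sign under a setting was called with all arrays after the exchange. The replicate numbers do not pair the arrays: same-numbered arrays correlated in their deviations at -0.05 to 0.12 in liver and -0.08 to 0.20 in fat, and with the replicate block the counts stayed 1, 2, 0 and 1 in fasted, restricted and FGF21-Tg liver and between fasted and restricted liver, and 0, 1, 0 and 0 in fat.

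This tally covers the counts of markers and the differences between tissues of Cd14, Lyz2, Vsig4 and Marco, of which only Cd14 was called with all arrays. Under an alternative 182 values kept their side, 36 counts moved by over 1.5 times or to or from 0 and 1 difference lost its call. Of the differences between tissues, only those of Cd14 went through settings added after seeing the data. These left out in turn each of 12 arrays in FGF21-Tg and 14 under restriction, and exchanged only positions of different tissues under restriction. Outside the tally, over single markers and the other lists, 897 values stayed and 43 counts moved. There 47 differences changed sign, 26 lost a call and 23 gained a call. The causes were not tested. Marco was detected on 12 of 16 liver and 4 of 16 fat arrays, which limits what its values can show.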

Other observations

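In the gastrocnemius muscle of the same groups, Cd14 was detected on 16 of 16 arrays at 6.10 to 7.31 log2 units and Lyz2, by its brighter probe, on 16 at 9.91 to 11.88. Vsig4 was detected on 10, Marco on 1 and Clec4f, Cd5l and Itgam on 0.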
